A study of Rattus norvegicus with 54 samples.

Results

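The 10 genes described here are immediate early genes: Fos, Fosb, Jun, Junb, Egr1, Ier2, Atf3, Dusp1, Cyr61 and Nr4a1. They were taken by symbol from the Sprague Dawley rat count tables, one for lung and one for right ventricle, and all 10 were found among the 12628 named genes of the lung table and the 12178 of the right ventricle table. Altitude animals, named H-H in the labels, were conceived under hypobaric hypoxia simulating 9000 feet (15% inspired oxygen) and stayed in it until the age of 6 weeks. Room-air animals, named RA-RA, lived over the same span in room air. The parents had been kept in the same air before mating, physiological experiments preceded tissue harvest, and tissue was flash frozen. The study held 54 libraries: 14 H-H and 15 RA-RA lungs, and 14 H-H and 11 RA-RA right ventricles. Each condition came from 2 litters, 4HH and 3HH at altitude and 6RARA and 4RARA in room air, so that litter lies within condition. Both tissues were sequenced from 25 animals.

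Immediate early genes are switched on within minutes of a stimulus, from factors already present in the cell, and their transcripts are short-lived. Fos, Fosb, Jun and Junb encode subunits of the transcription factor AP-1, and Atf3, Egr1 and Nr4a1 encode further transcription factors. Dusp1 is a phosphatase that switches off MAP kinases, Cyr61 (now named Ccn1) is a secreted matrix protein and a target of mechanical and Hippo signalling, and Ier2 is a small nuclear protein. In heart and lung these genes are known to respond to stretch, hormones, injury and the handling of tissue.

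Short genes and promoters with cAMP or serum response sites are typical of the class, and the sequences of 4 promoters are shown here because these genes recur in the results below. The upstream stretches are RefSeq sequence of the GRCr8 build, 5′ to 3′ on the gene's strand, ending at the last base before the annotated start. Capitals mark the cAMP response element TGACGTCA, its short core TGACG on either strand (which lies within the full one) and the CArG box bound by serum response factor. The Dusp1 stretch is chr10:17184703-17184852 (plus strand), that of Ier2 chr19:40399223-40399372 (plus), that of Egr1 chr18:26736928-26737077 (plus) and that of Cyr61 chr2:237225690-237225839 (minus).
Dusp1: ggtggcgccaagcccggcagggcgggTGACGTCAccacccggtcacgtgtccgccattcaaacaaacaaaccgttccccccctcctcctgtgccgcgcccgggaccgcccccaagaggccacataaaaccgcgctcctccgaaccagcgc
Ier2: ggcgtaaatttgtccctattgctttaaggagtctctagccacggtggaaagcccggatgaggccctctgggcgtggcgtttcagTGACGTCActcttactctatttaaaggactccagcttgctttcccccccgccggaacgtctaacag
Egr1: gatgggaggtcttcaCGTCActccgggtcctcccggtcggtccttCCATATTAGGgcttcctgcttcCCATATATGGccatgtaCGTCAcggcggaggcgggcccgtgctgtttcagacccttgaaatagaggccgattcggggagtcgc
Cyr61: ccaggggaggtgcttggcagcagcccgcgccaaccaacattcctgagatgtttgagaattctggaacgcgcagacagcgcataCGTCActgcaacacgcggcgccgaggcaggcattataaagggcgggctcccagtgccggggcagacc
RefSeq promoters were matched for 7 of the 10 genes, all but Fos, Jun and Atf3, and 250 bases before each start were searched on both strands. The full element TGACGTCA occurred in 2 of the 7, Ier2 and Dusp1, and in 1.59% of all 33469 rat promoters. The core TGACG occurred in 6 of the 7, all but Fosb, and in 18.2% of all promoters. Egr1 held 2 CArG boxes, 105 and 83 bases before its start, a motif found in 501 of the 33469 promoters. The AP-1 element TGANTCA (6.34% of promoters) and the heat shock element GAANNTTC (7.23%) were in none of the 7 windows. These matches are letters in a window and show no binding. On the rn6 build used for counting, the 10 genes had a median of 4 exons and a median span of 2913 bases, against 9 exons and 20428 bases for all named genes of the lung table. Ier2 lies at chr19:25774146-25775670 (minus strand), Cyr61 at chr2:251529354-251532312 (minus), Dusp1 at chr10:16970642-16973425 (plus) and Jun at chr5:114011186-114014277 (minus). Jun, Junb and Ier2 had 1 exon each, as did 2.66% of all genes. No exon of the 10 genes overlapped that of another gene in the lung table.

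Before any comparison, some libraries stood apart. Total counts ran from 1026832 to 23852403 in lung and from 6104675 to 16298663 in right ventricle. The 4 right ventricles of litter 6RARA had RNA integrity numbers (RIN) of 5.8 to 7.4 and 17.3% to 22.5% intergenic reads, against 6.5 to 9.6 and 9.28% to 12.3% in litter 4RARA. The lung of 6RARA66, with the 1026832 counts, had the lowest RIN (6.1) and the highest intergenic share (59.2%) of all lungs. Fits that leave it out together with the lungs of 4HH39 and 6RARA68 are given below. Lung and heart markers were found where the labels place them, except that the lung library of animal 4HH37 held cardiac muscle transcripts at a summed 14048 CPM and its ventricle held alveolar type 2 transcripts at 12408 CPM, and that the 4 ventricles of litter 6RARA also held lung markers. In those 4, alveolar type 2 markers summed to 198 to 1504 CPM and airway markers to 61.4 to 385 CPM, against 11.0 to 162 and 1.27 to 26.1 CPM in litter 4RARA. All values below are CPM, counts relative to the library total after TMM scaling for library composition, and RPKM is CPM per kilobase of exon. The p-values measure the spread between these animals, while the independent exposures are the 4 litters, so that litter and condition cannot be told apart.

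Compared per length, Jun and Dusp1 were the most abundant of the 10 in both tissues and Fosb the least. Median RPKM over the 29 lungs was 80.1 for Jun, 72.2 for Dusp1, 59.4 for Ier2, 40.8 for Junb, 28.3 for Cyr61, 14.4 for Nr4a1, 9.42 for Atf3, 7.54 for Egr1, 7.43 for Fos and 1.57 for Fosb. Median RPKM over the 25 right ventricles was 45.5 for Dusp1, 39.3 for Jun, 25.9 for Ier2, 16.04 for Junb, 13.4 for Cyr61, 6.41 for Nr4a1, 4.99 for Egr1, 3.67 for Atf3, 1.63 for Fos and 0.69 for Fosb. The ranges of neighbours in either order overlapped over the libraries, and the order of the genes within single libraries was not compared. In lung, single libraries ran from 134 to 1239 CPM for Jun and from 1.41 to 60.01 CPM for Egr1. In right ventricle, single libraries ran from 1.15 to 67.01 CPM for Fos.

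Lung was compared with right ventricle on a common scale over all 54 libraries. Jun, Junb, Ier2, Atf3 and Nr4a1 were called higher in lung (5 of 10, against 38.9% of the 11723 genes tested, called at an adjusted p under 0.05 in edgeR's quasi-likelihood test). The largest difference was in Junb, at 67.5 ± 22.1 CPM in lung and 37.9 ± 15.9 CPM in right ventricle on that scale (SD, n = 29 and 25), a log2 fold change of 0.80 ± 0.12 (SE). In a fit blocked on the animal, restricted to the 25 with a library from each tissue, Fos (1.01 ± 0.23, edgeR adjusted p = 0.00033) and Cyr61 (0.31 ± 0.13, adjusted p = 0.029) were called as well, which makes 7 of 10 against 40.4% of all genes. Fosb, Egr1 and Dusp1 were called in neither fit. Without litter 3HH, Junb alone stayed past the threshold, with 4047 of 11776 genes called higher in lung. Without litter 4RARA 3 genes did, with 3935 of 11814 genes called higher.

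**Figure D1:**
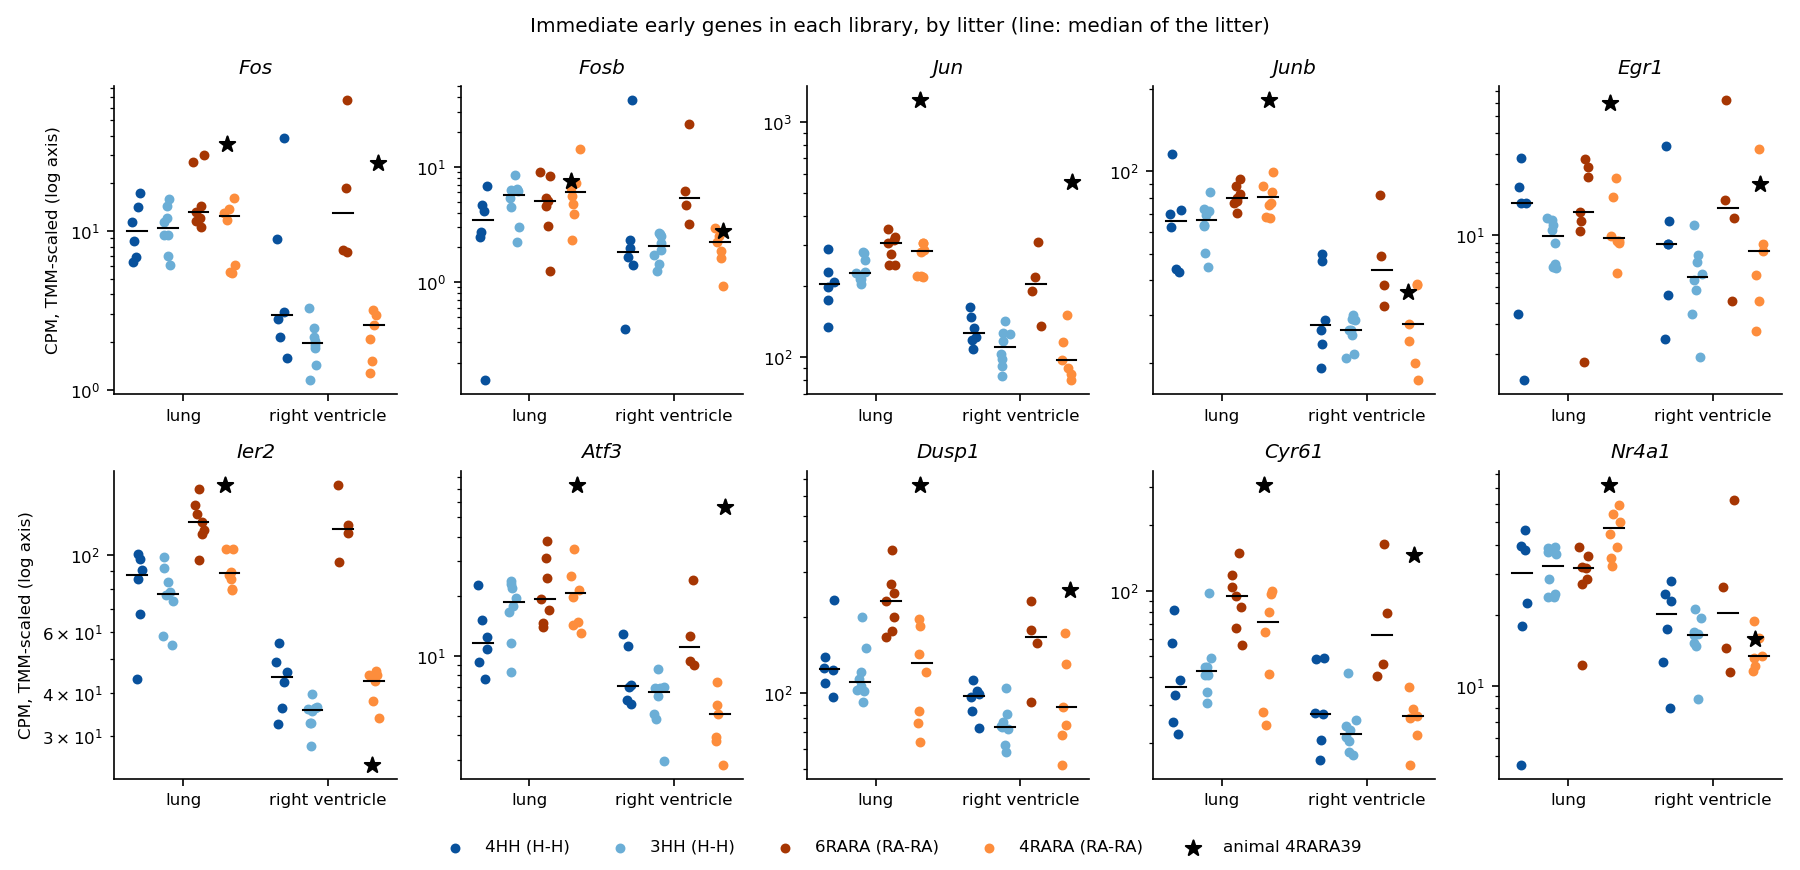
Level of each gene in every library (CPM on log axes), by tissue and litter; lines are litter medians and the star is animal 4RARA39. In lung, Jun of that animal stands at 1239 CPM, far above all other lungs, and in right ventricle Ier2 of litter 6RARA stands above the other 3 litters.

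In lung, all 10 genes had lower fitted levels in H-H than in RA-RA animals, and 2 of them passed the test, Ier2 and Cyr61. These are 2 of 10 genes called lower, against 1.13% of 12093 genes called lower and 2.00% called in either direction. The log2 fold changes of the 10 ran from −1.06 for Cyr61 to −0.40 for Junb, with a median of −0.53, where the median of all genes was 0.02.

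Cyr61 was at 22.0 CPM in the lowest, 40.9 in the median and 97.3 in the highest of 14 H-H lungs, against 24.2, 83.8 and 306 CPM in 15 RA-RA lungs. The groups overlapped between 24.2 and 97.3 CPM, and the RA-RA median lay above all but 1 of the H-H lungs. Its mean was 45.8 ± 20.9 CPM in H-H and 94.1 ± 67.6 CPM in RA-RA lungs (SD), with a log2 fold change of −1.06 ± 0.29 (SE, edgeR adjusted p = 0.047). Ier2 was at 43.9 CPM in the lowest, 81.0 in the median and 101 in the highest H-H lung, against 79.6, 104 and 160 CPM in RA-RA lungs. The ranges overlapped between 79.6 and 101 CPM, and the fold change was −0.50 ± 0.13 (adjusted p = 0.034). Both calls were lost without animal 4RARA39 (Ier2 −0.46, adjusted p = 0.054, and Cyr61 −0.83, adjusted p = 0.064), without litter 3HH, 4HH or 6RARA, and with RIN as a covariate. None of the 10 was called within any library batch, with litter as a random effect (limma voom; Ier2 −0.51, Cyr61 −0.87) or on counts summed per litter (Ier2 −0.49, Cyr61 −1.07). Without litter 4RARA, Cyr61, Ier2 and Dusp1 were called, where 1230 of 12230 genes were called in either direction.

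Among the AP-1 subunits and their partners, none passed in lung. Jun was at 134 CPM in the lowest, 221 in the median and 289 in the highest H-H lung, against 218, 285 and 1239 CPM in RA-RA lungs. The RA-RA lungs without 4RARA39 ended at 350 CPM, so 1 library sets the upper end, and the fold change of −0.56 ± 0.19 (adjusted p = 0.15) became −0.31 without it. Junb gave −0.40 ± 0.14 (adjusted p = 0.17), Atf3 −0.64 ± 0.22 (adjusted p = 0.16), Fos −0.46 ± 0.25 (adjusted p = 0.44) and Fosb −0.40 ± 0.31 (adjusted p = 0.66). Dusp1 was at 92.6 CPM in the lowest, 117 in the median and 234 in the highest H-H lung, against 64.3, 184 and 664 CPM in RA-RA lungs, and gave −0.64 ± 0.23 (adjusted p = 0.18). The RA-RA lungs thus held both the lowest and the highest Dusp1 values. Egr1 (−0.57 ± 0.37, adjusted p = 0.56) and Nr4a1 (−0.40 ± 0.22, adjusted p = 0.46) did not pass either. Their lowest values were 1.41 and 4.59 CPM in the H-H lung of 4HH39, against 1.82 and 12.3 CPM in the RA-RA lung of 6RARA68. The authors' deposited table of lung has Cyr61, Ier2, Dusp1 and Junb under a false discovery rate of 0.05, 4 of 10 against 5.87% of its entries.

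In right ventricle, the 10 fitted fold changes were again all below 0, and 1 gene passed the test: Ier2. That is 1 of 10 called lower, against 2.21% of 11278 genes called lower and 3.04% in either direction. The log2 fold changes ran from −1.51 for Fos to −0.13 for Nr4a1, with a median of −0.76, where the median of all genes was 0.02.

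Ier2 was at 28.01 CPM in the lowest, 36.2 in the median and 55.7 in the highest of 14 H-H ventricles, against 24.7, 45.2 and 160 CPM in 11 RA-RA ventricles. The highest H-H value was that of 4HH37, whose ventricle library also held lung transcripts. The high end in room air was made by litter 6RARA, whose 4 ventricles held 95.3, 116, 123 and 160 CPM, while the 7 of litter 4RARA held 24.7 to 46.3 CPM. The fold change over all libraries was −0.87 ± 0.24 (edgeR adjusted p = 0.047), and without litter 6RARA it was −0.04 (adjusted p = 0.96). Without litter 3HH (−0.69) or litter 4HH (−1.04), and with RIN or library batch as a covariate, it was not called either, nor within library batches 1 and 2, with litter as a random effect (−0.82) or on counts summed per litter (−1.06). It was also lost without animal 4HH33 (−0.88, adjusted p = 0.067). Without litter 4RARA, where litter 6RARA alone stood for room air, 7 of the 10 genes were called. In that fit 6508 of 11696 genes were called in either direction, 3101 of them lower.

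Dusp1 (−0.71 ± 0.20, adjusted p = 0.056) and Cyr61 (−1.08 ± 0.33, adjusted p = 0.069) lay just outside the threshold. Dusp1 was at 58.3 CPM in the lowest, 79.6 in the median and 113 in the highest H-H ventricle, against 52.04, 130 and 256 CPM in RA-RA ventricles, so the RA-RA values enclosed the H-H ones. Cyr61 was at 16.8, 23.4 and 49.02 CPM in H-H ventricles, against 15.8, 36.2 and 164 CPM in RA-RA ventricles, again with the H-H range inside. Fos had the largest fold change and the largest error, −1.51 ± 0.62 (adjusted p = 0.17). It was at 1.15 CPM in the lowest, 2.14 in the median and 38.8 in the highest H-H ventricle, against 1.29, 3.19 and 67.01 CPM in RA-RA ventricles. The highest values were those of 3 animals: 4HH33 at 38.8 CPM, 6RARA72 at 67.01 CPM and 4RARA39 at 26.8 CPM. The litters differed too: the 4 ventricles of 6RARA held 7.44 to 67.01 CPM, and those of 4RARA without 4RARA39 held 1.29 to 3.19 CPM. Litter 3HH held 1.15 to 3.29 CPM, and litter 4HH without 4HH33 held 1.59 to 8.96 CPM. Without 4HH33 the fold change of Fos was −2.17 and passed the test (adjusted p = 0.046). The other 6 genes gave −0.94 (Egr1), −0.80 (Atf3), −0.61 (Jun), −0.38 (Junb), −0.26 (Fosb) and −0.13 (Nr4a1), none past the threshold, although Jun and Atf3 had an unadjusted p under 0.05. Without litter 6RARA and animal 4RARA39 together, 7 of the 10 were above 0, Fos at 0.85 and Atf3 at 0.57 among them, with no gene called. The authors' deposited table of right ventricle has 1 of the 10 genes, Dusp1, under a false discovery rate of 0.05, against 4.02% of its entries. The authors' log2 fold change of Nr4a1 there was above 0, at 0.18, and those of Jun and Atf3 were −0.21 and −0.12.

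**Figure D2:**
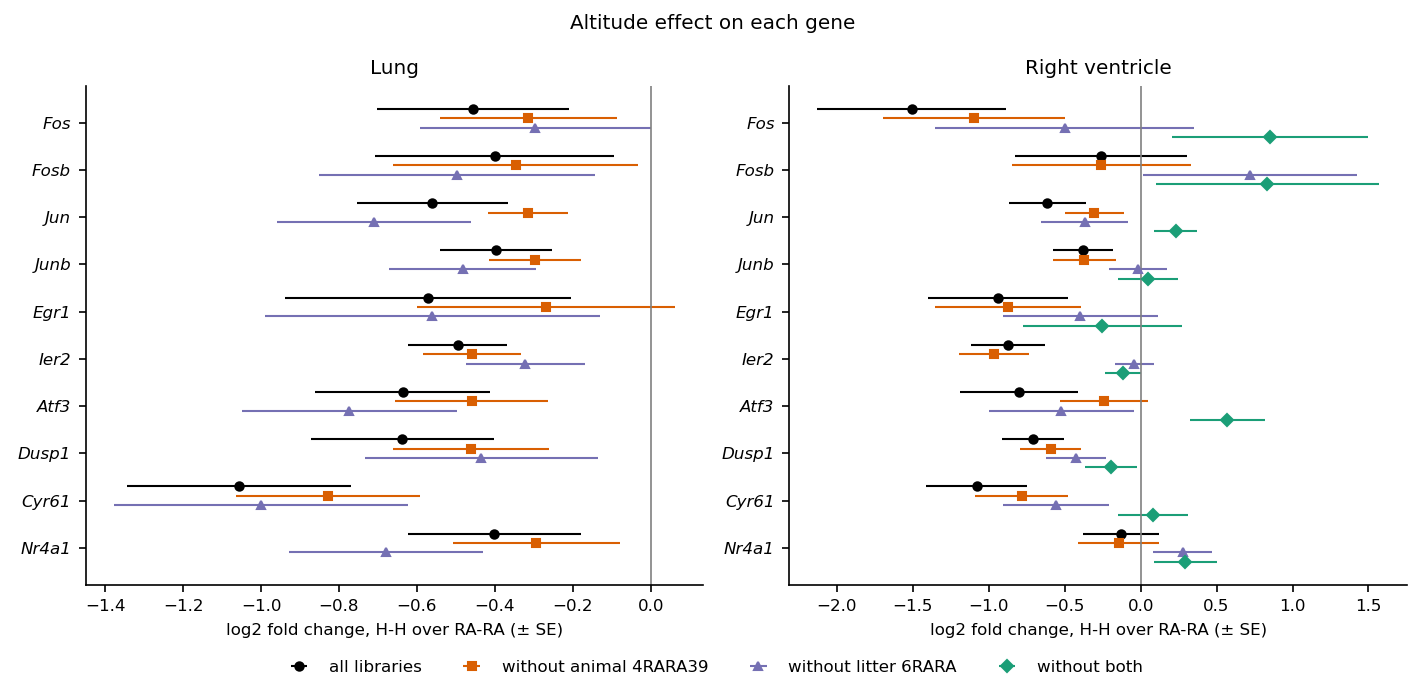
H-H against RA-RA, as log2 fold change with its standard error, for each gene in lung and right ventricle, for all libraries and without the animal or litter named. In lung the 10 values lie below 0 with all libraries, without animal 4RARA39 and without litter 6RARA; not drawn are the lung values above 0, Nr4a1 at 0.026 without litter 4RARA, Fosb at 0.27 within library batch 2, and Egr1 at 0.0012 and Nr4a1 at 0.11 within batch 3. In right ventricle 7 of 10 lie above 0 without litter 6RARA and animal 4RARA39.

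The altitude effect itself was compared between the tissues. None of the 10 genes was called for a difference of the lung effect from the right ventricle effect, where 1.02% of 11723 genes were. None of the 10 had an unadjusted p under 0.05 in this edgeR fit either. The largest difference was that of Fos, at 1.03 ± 0.64 on the log2 scale (adjusted p = 0.56), with −0.46 in lung and −1.51 in right ventricle. With the animal as a block the count stayed at 0, and DESeq2 gave 0 as well. Male animals were compared with female animals in each tissue, and none of the 10 genes was called in lung (0.0331% of genes called) or right ventricle (0.0446% called). At an unadjusted p under 0.05, edgeR gave Dusp1 in lung (−0.55, adjusted p = 0.88) and Fos (1.63) and Fosb (1.51) in right ventricle (adjusted p = 0.77 each), as log2 of male over female. The highest ventricles for both Fos and Fosb were those of the males 6RARA72 and 4HH33. For Dusp1 the highest lungs were those of the females 4RARA39 and 6RARA68. The sex comparison was not run without these animals.

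In right ventricle, litter 6RARA was above litter 4RARA in the fitted level of all 10 genes, and Ier2, Fosb, Junb and Nr4a1 passed the test, 4 of 10 against 29.9% of genes called higher, with 6953 of 11789 called in either direction. Ier2 was at 123 ± 26.95 CPM in litter 6RARA and 39.5 ± 7.92 CPM in litter 4RARA (SD, n = 4 and 7), a log2 fold change of 1.66 ± 0.15 (edgeR adjusted p = 1.47e-09), and the litters did not overlap. Fosb gave 1.89 ± 0.79 (adjusted p = 0.044), Nr4a1 0.97 ± 0.34 (adjusted p = 0.018) and Junb 0.78 ± 0.26 (adjusted p = 0.012). Without animal 4RARA39, 9 of 10 genes passed, all but Egr1, against 30.5% of genes called higher, with Fos at 3.12 ± 0.67. Within litter 6RARA, animal 6RARA72 was highest for all 10 genes. Its Egr1 was at 62.2 CPM against 4.12, 12.7 and 16.2 CPM in its littermates, and its Nr4a1 was at 61.9 CPM against 11.4, 14.4 and 26.5 CPM. Without 6RARA72, Ier2 alone stayed called (1.51), with 3221 of 11889 genes called higher.

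The 4 ventricles of litter 6RARA had RIN of 5.8 to 7.4, and their cell markers differed too. Low RIN was not confined to them, since the ventricle of 3HH30 had 5.9 and that of 4RARA40 had 6.5. All 6 endothelial and all 4 smooth muscle markers were called higher in litter 6RARA than in litter 4RARA, against 29.9% of all genes called higher. Summed endothelial markers ran from 2807 to 3708 CPM in litter 6RARA and from 1187 to 1898 CPM in litter 4RARA, and summed cardiac muscle markers from 21917 to 32495 CPM in litter 6RARA and from 71307 to 91947 CPM in litter 4RARA. In the altitude comparison 3 of 6 endothelial markers were called lower in H-H ventricles, against 2.21% of all genes, with sums of 800 to 2132 CPM in H-H and 1187 to 3708 CPM in RA-RA ventricles. The part of cell makeup and of RNA quality in the levels of the early genes was not tested, and in bulk tissue fewer cells of a type and less RNA per cell cannot be told apart. In lung, 1 of 6 endothelial markers was called lower, against 1.13% of all genes, with sums of 1869 to 4851 CPM in H-H and 3235 to 4717 CPM in RA-RA lungs.

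In the other litter contrasts none of the 10 genes was called. Litter 4HH against litter 3HH gave 0 of 10 in lung (4.27% of genes called) and 0 of 10 in right ventricle (1.48% called), and litter 6RARA against 4RARA gave 0 of 10 in lung (20.9% called). At an unadjusted p under 0.05, edgeR gave Fos, Fosb and Ier2 in the ventricles of the altitude litters, Ier2 and Nr4a1 in the lungs of the room-air litters and none in the lungs of the altitude litters. The right ventricle contrast of 4HH over 3HH gave 2.00 ± 0.82 for Fos and 1.56 ± 0.71 for Fosb, and without animal 4HH33 these were 0.89 and −0.36. In that animal's ventricle Fosb was at 37.998 CPM and Fos at 38.8 CPM. Its 5 littermates held 0.39 to 2.31 CPM of Fosb and 1.59 to 8.96 CPM of Fos, the highest of each in 4HH37. The lung of 4HH33 held 6.77 CPM of Fosb, against 0.141 to 4.62 CPM in its littermates, and 11.5 CPM of Fos, against 6.36 to 17.5 CPM. The lung contrast of 6RARA over 4RARA, repeated without animal 4RARA39, called Dusp1 (0.90 ± 0.24, edgeR adjusted p = 0.010) and Ier2 (0.49 ± 0.16, adjusted p = 0.033), 2 of 10 against 8.20% of genes called higher.

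**Figure D3:**
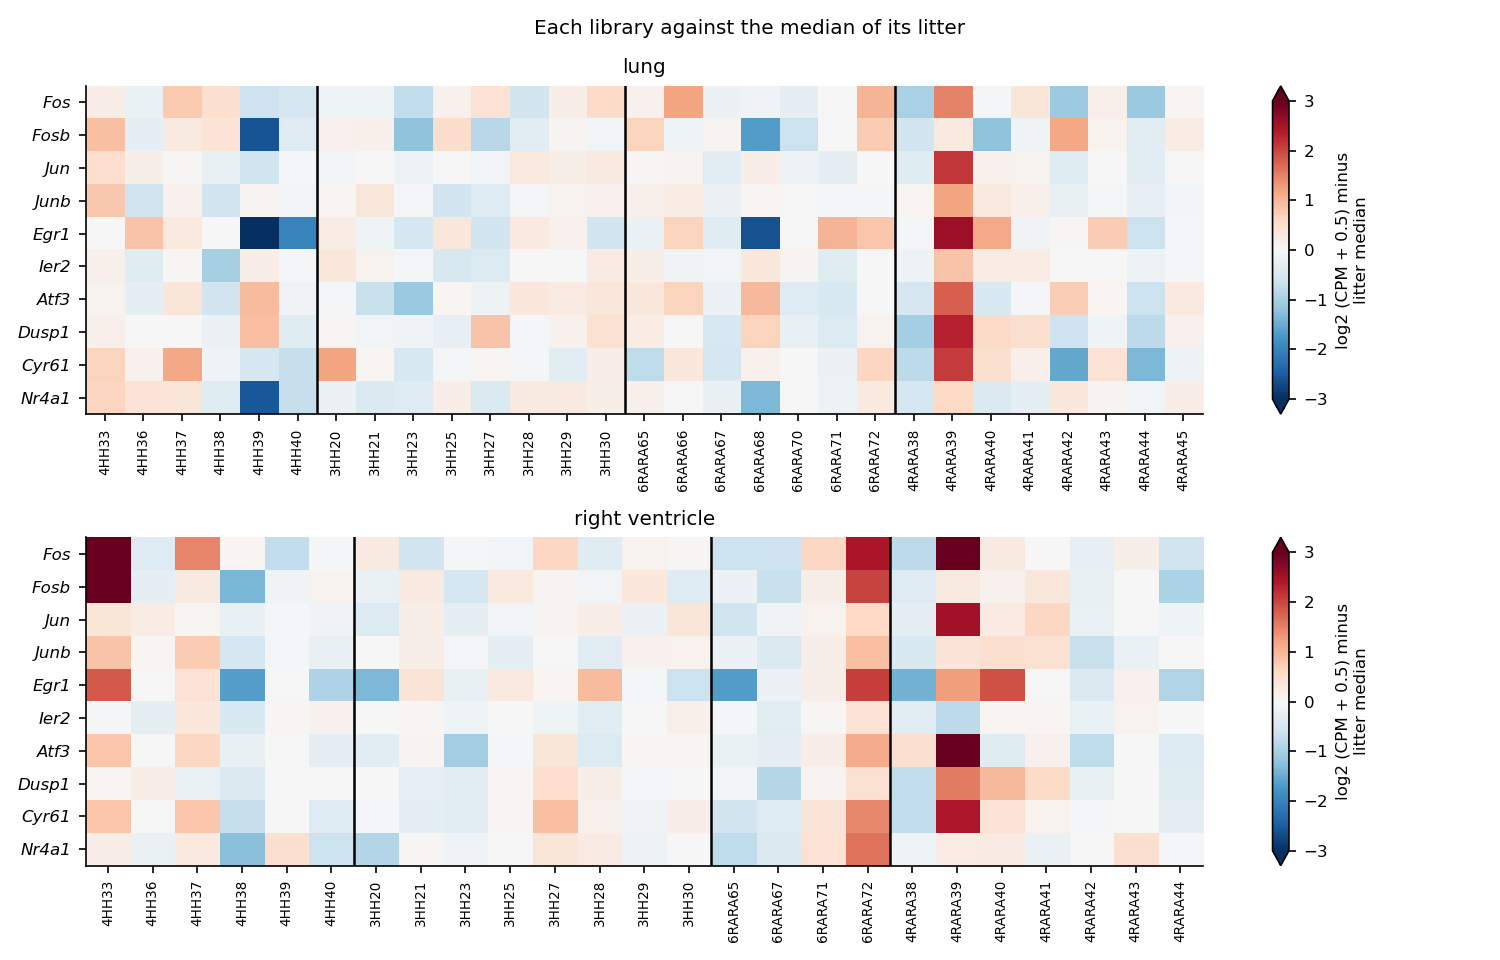
Log2 (CPM + 0.5) of each gene in each library minus the median of its litter in that tissue; columns are animals ordered by litter and colours saturate at 3. The columns of 4RARA39 in both tissues and of 6RARA72 and 4HH33 in right ventricle are high for most genes, and 4HH39 in lung is low for Egr1, Fosb and Nr4a1.

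Animal 4RARA39, a room-air female, was high for most of the 10 genes in both tissues and for all heat shock genes listed. In its lung, 9 of 10 early genes were above every littermate and above all other 28 lungs, all but Fosb. In its right ventricle, 5 of 10 were above every littermate: Fos, Jun, Atf3, Dusp1 and Cyr61. The share of all genes above every littermate in its libraries was not computed, for these counts or for those of the heat shock and steroid-induced genes below. Jun was at 1239 CPM in its lung, against 218 to 307 CPM in 7 littermates, and at 556 CPM in its ventricle, against 79.9 to 151 CPM in 6 littermates. Atf3 was at 73.1 CPM in its lung, against 13.1 to 34.6 CPM in littermates, and at 56.2 CPM in its ventricle, against 2.83 to 7.40 CPM. Cyr61 was at 306 CPM in its lung, against 24.2 to 99.7 CPM, and at 146 CPM in its ventricle, against 15.8 to 36.2 CPM. Fosb and Nr4a1 stayed near their littermates in the ventricle, at 1.36 and 1.19 times the littermate median. Ier2 was the exception, highest of all lungs at 160 CPM and lowest of all ventricles at 24.7 CPM.

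The heat shock genes of the same animal were further out than the early genes. Hspa1a, the inducible HSP70 chaperone, was at 3232 CPM in its ventricle, against 3.57 to 6.19 CPM in 6 littermates and at most 36.9 CPM in any other ventricle. Its lung held 385 times the littermate median of Hspa1a. Hsph1, an HSP110 chaperone, was at 3809 CPM in its lung, against 73.2 to 131 CPM in littermates, and at 2813 CPM in its ventricle, against 69.9 to 88.0 CPM. Dnajb1, an HSP40 cochaperone, was 16.3 times the littermate median in lung and 23.3 times in right ventricle. All 11 heat shock genes listed were above every littermate in both tissues, at ratios of 4.04 to 385 in lung and 2.04 to 677 in right ventricle, and the 10 early genes were at ratios of 1.35 to 6.44 in lung and 0.56 to 12.5 in right ventricle. Hspa1a and Hspa1b are near-identical copies, so the division of reads between them is uncertain. Of the 12 steroid-induced genes listed, 2 in lung and 3 in right ventricle were above every littermate. The lung and ventricle libraries of this animal were made in library batches 2 and 1, with RIN of 8.3 and 9.6. Cardiac muscle markers in its lung (38.5 CPM summed) and alveolar type 2 markers in its ventricle (41.5 CPM) lay within the range of its litter. Its lung was the highest of its litter for summed liver (64.02 CPM) and B cell (99.3 CPM) markers, and the lowest for macrophage (653 CPM) and T and NK cell (49.6 CPM) markers. Its ventricle was the highest for endothelial (1898 CPM), macrophage (207 CPM), neutrophil (28.1 CPM) and cardiac muscle (91947 CPM) markers. It was the lowest for erythroid (896 CPM), alveolar type 1 (51.5 CPM) and skeletal muscle (4277 CPM) markers. The part of these cell markers in the levels of the early genes was not tested. In the mapping statistics, mitochondrial reads made up 49.5% of its ventricle library, the highest share of all ventricles, with 3HH20 next at 45.1%. No record of the animal's condition or handling was used here.

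**Figure D4:**
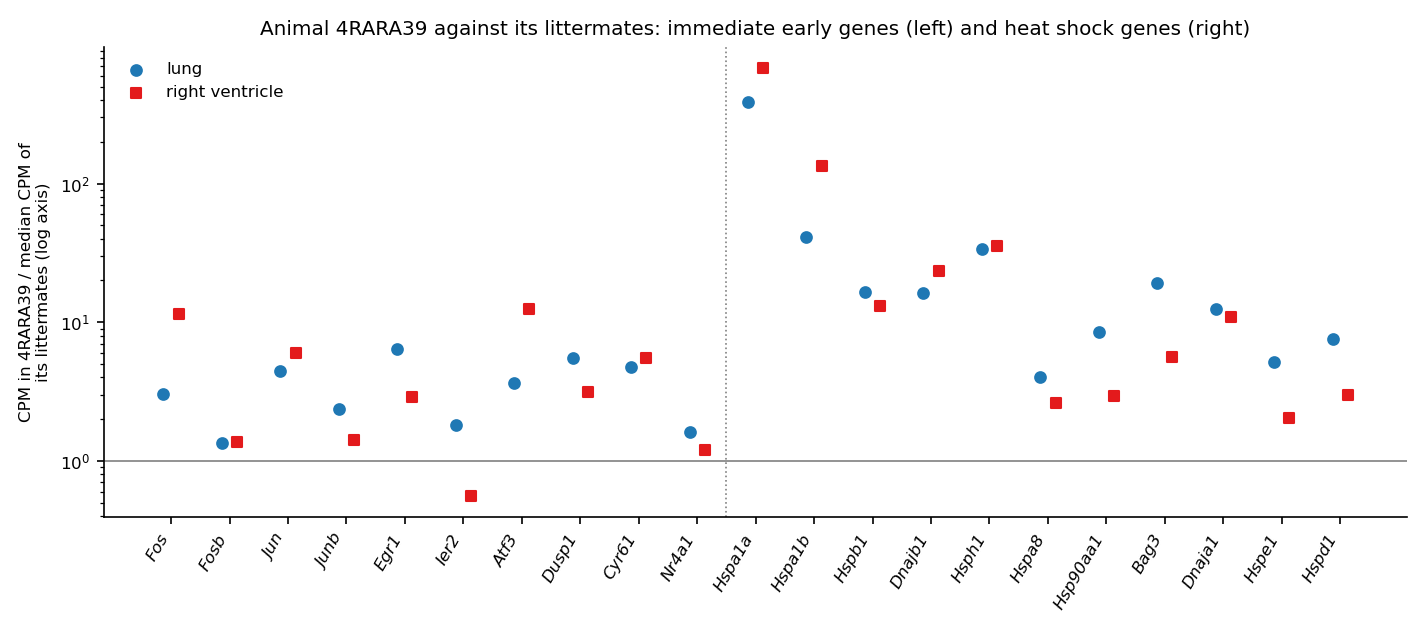
CPM of animal 4RARA39 divided by the median CPM of its littermates (log axis) for the 10 early genes and 11 heat shock genes, in lung (circles) and right ventricle (squares). The heat shock genes reach 677 times and the early genes 12.5 times the littermate median, and Ier2 in right ventricle is the one value below 1.

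Lung and right ventricle of one animal could be set side by side in 25 animals, after each log2 CPM was centred on its litter. Dusp1, Jun, Cyr61 and Fos agreed between the tissues beyond the test's threshold, 4 of 10 against 2.28% of 10986 genes called with a positive correlation and 2.43% called in either direction (F test of the linear model, Benjamini-Hochberg adjusted over all genes). The members' correlations ran from 0.00 for Nr4a1 to 0.88 for Jun, with a median of 0.58, and the median over all genes was 0.13. Lung and ventricle of an animal share the animal and the moment of tissue harvest but not the library batch in most cases: 7 of 25 had both libraries in one batch.

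Dusp1 gave r = 0.84 and Spearman's rho = 0.71 over 25 animals (permutation p = 7.0e-05 and 0.0016, both two-sided with ventricles permuted among littermates, F test adjusted p = 0.00032). The 2 animals farthest from the lung median were picked for each gene separately. Without those of Dusp1, 4RARA39 and 6RARA65, r was 0.75 (adjusted p = 0.011), and without 4RARA39 alone it was 0.74 (adjusted p = 0.018, permutation p = 0.00043). It was the 1 gene of the 10 called without that animal, against 1.26% of genes called with a positive correlation. In litter 4RARA the lung values were 64.3, 664, 196, 184, 84.8, 121 and 75.9 CPM and the ventricle values of the same animals in the same order 52.04, 256, 173, 130, 74.9, 87.7 and 68.5 CPM. The 7 animals thus stood in the same order in both tissues (rho = 1.00, Pearson's r = 0.96, exact permutation p = 0.000198). In litter 3HH r was 0.69 (exact permutation p = 0.067, n = 8) and in litter 4HH 0.27 (exact permutation p = 0.59, n = 6).

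For Jun, Cyr61 and Fos the size of r rested in part on animal 4RARA39. Jun gave r = 0.88 and rho = 0.67 (permutation p = 0.00048 and 0.00092, F test adjusted p = 3.31e-05), and r = 0.53 without 4RARA39 (adjusted p = 0.24, permutation p = 0.0059). Cyr61 gave r = 0.76 and rho = 0.73 (permutation p = 0.00026 and 0.00018, F test adjusted p = 0.0048), and r = 0.60 without that animal (adjusted p = 0.13, permutation p = 0.0027). Fos gave r = 0.70 and rho = 0.68 (permutation p = 0.00061 and 0.00014, F test adjusted p = 0.022), and r = 0.55 without it (adjusted p = 0.20, permutation p = 0.0052). Junb had r = 0.59 with all animals (adjusted p = 0.10) and 0.58 without 4RARA39. Without the 2 animals farthest from the lung median of the gene, r was 0.58 for Jun, 0.54 for Cyr61 and 0.46 for Fos, none past the threshold over all genes. The animals left out were 4HH39 and 4RARA39 for Jun, and 4RARA39 and 6RARA72 for Cyr61 and Fos. Fos also lost its call with the library batch of each tissue in the model (r = 0.64, adjusted p = 0.12) and with the RIN of each tissue (r = 0.67, adjusted p = 0.071), while Dusp1, Jun and Cyr61 were called in both.

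The other genes did not pass over all genes. Atf3 had r = 0.58 and rho = 0.34 (permutation p = 0.038 and 0.12, F test adjusted p = 0.11), and r = 0.14 without 4RARA39, so its value rested on that animal. Egr1 had r = 0.42 and rho = 0.55 (permutation p = 0.073 and 0.012, F test adjusted p = 0.37) and Fosb r = 0.29 and rho = 0.35 (permutation p = 0.31 and 0.10, F test adjusted p = 0.62). Nr4a1 had r = 0.00 and rho = 0.13 (permutation p = 0.99 and 0.55). Ier2 had r = 0.09 and rho = 0.27 (permutation p = 0.68 and 0.21) with all animals and r = 0.51 without 4RARA39, in which its lung value was the highest and its ventricle value the lowest of all. The permutation p values are not adjusted over the 10 genes, and the adjusted values are those of the F test over all genes.

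**Figure D5:**
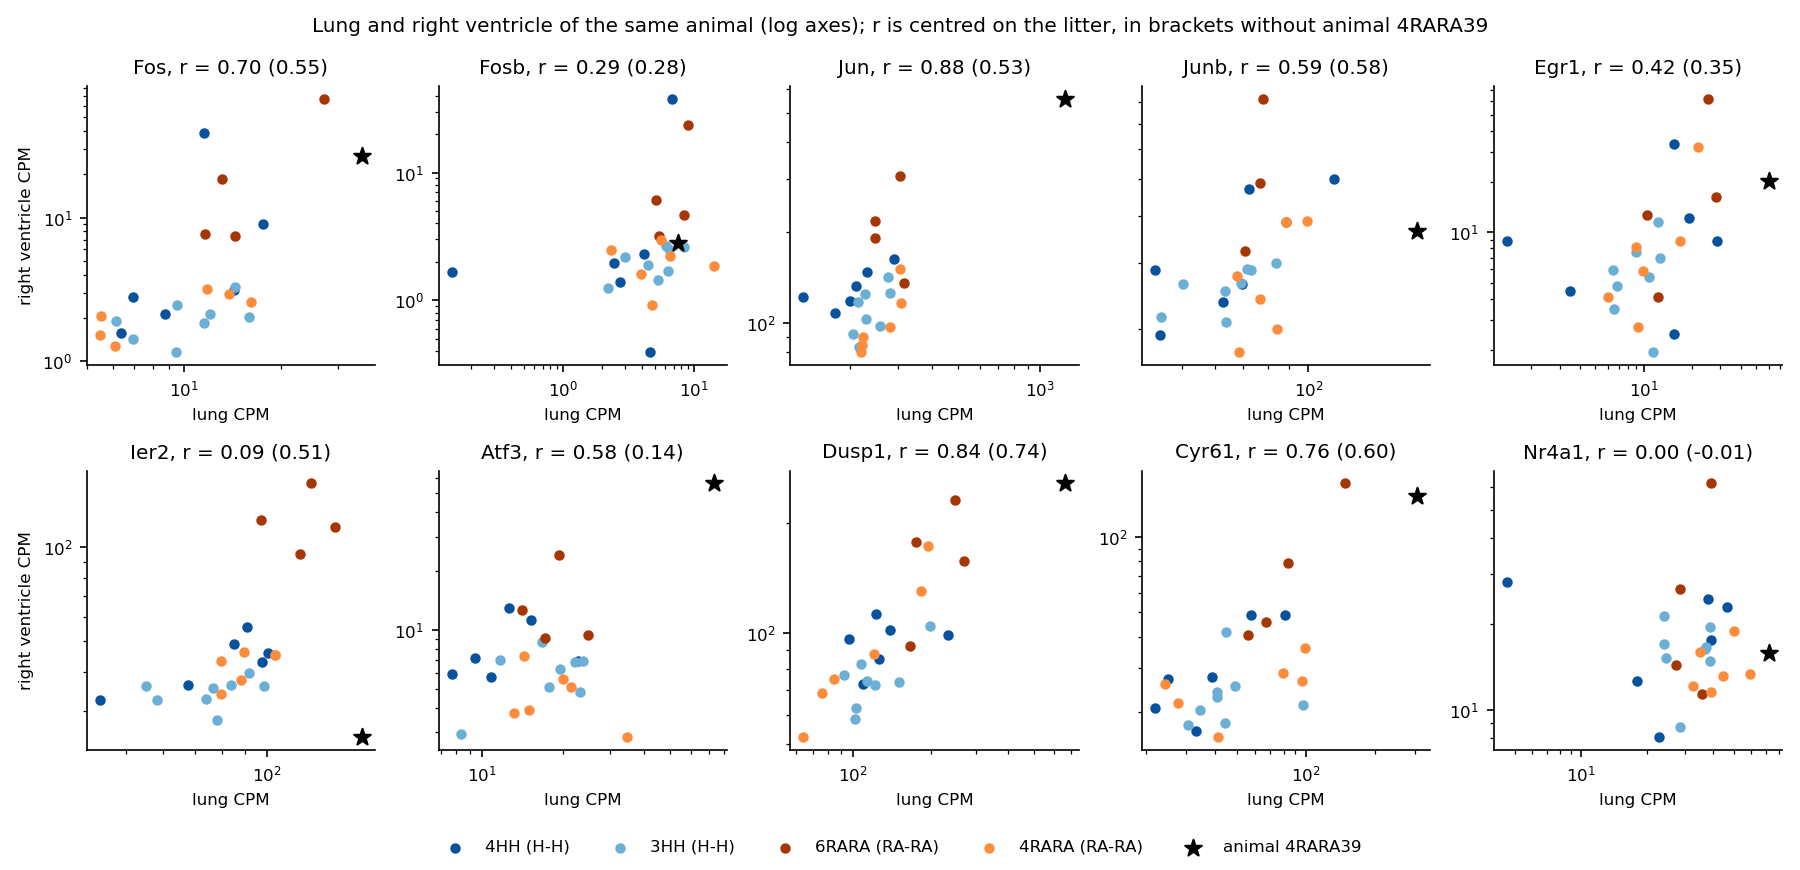
CPM in lung (x, log axis) and right ventricle (y, log axis) of the same 25 animals for each gene, coloured by litter, with 4RARA39 as a star. The r above each panel is centred on the litter, and the value in brackets leaves out 4RARA39: Dusp1 holds 0.74, Jun 0.53 and Atf3 0.14.

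Within a tissue the 10 genes moved together only in part. Over 29 lungs, the litter-centred correlation was above 0 for 37 of 45 gene pairs, with a median of 0.45, the highest between Fosb and Nr4a1 (0.86) and the lowest between Fosb and Dusp1 (−0.26). Over 25 right ventricles it was above 0 for 40 of 45 pairs, with a median of 0.59, the highest between Fos and Cyr61 (0.87) and the lowest between Jun and Ier2 (−0.31). Without 4RARA39, 32 of 45 lung pairs (median 0.31) and all 45 ventricle pairs (median 0.59) were above 0. Without the lungs of 4RARA39, 4HH39, 6RARA66 and 6RARA68, 41 of 45 pairs were above 0, with a median of 0.29 over 25 lungs. The highest pair was then Junb and Ier2 (0.78), no longer Fosb and Nr4a1, and the lowest was still Fosb and Dusp1 (−0.10). Without the ventricles of 4RARA39, 4HH33, 4HH37 and litter 6RARA, 42 of 45 were above 0, with a median of 0.36 over 18 ventricles. The highest pair there was Dusp1 and Cyr61 (0.86) and the lowest Fos and Nr4a1 (−0.22). These are descriptions of points that share litters, batches and scaling. In lung, 4HH39 was lowest of its litter for 5 genes and highest for 3: it had 2 Fosb reads (0.14 CPM) and 1.41 CPM of Egr1, but 234 CPM of Dusp1, the most of any H-H lung. The lung of 6RARA68 was the lowest of its litter for Egr1 (1.82 CPM) and Nr4a1 (12.3 CPM) and the highest for Jun (350 CPM), Dusp1 (367 CPM), Ier2 (156 CPM) and Atf3 (38.3 CPM). Jun differed between these libraries, since the 134 CPM of 4HH39 was the lowest of all lungs. Its lung and that of 4HH39 had low TMM factors, 0.87 and 0.72.

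The non-member genes most like the mean of the 10 genes, by Pearson's r of litter-centred log2 CPM, were Ppp1r15a (0.81), Bag3 (0.78), Hes1 (0.77), Hspa1a (0.76) and Slc25a25 (0.76) over 29 lungs. Ppp1r15a encodes a stress-induced phosphatase subunit and Bag3 a cochaperone. Without 4RARA39 the lung ranking was led by Klf2 (0.62), Csrnp1 (0.62), Trim47 (0.60), Atn1 (0.59) and Grip2 (0.58), and Hspa1a had 0.30. Over 25 right ventricles the closest were Zfp36 (0.83), Ier3 (0.74), Klf6 (0.72), Egr3 (0.71) and Egr2 (0.70), all of them on the list of other early genes. Zfp36, which encodes an mRNA-decay factor, stayed first without 4RARA39 (0.86), ahead of Ldb1 (0.79), Egr3 (0.75), Ap5z1 (0.73) and Atf5 (0.72). Ier3, Klf6 and Egr2 then stood at ranks 20, 23 and 14.

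Among 50 other early genes listed, lower levels in H-H animals were called for 4 of 47 tested in lung and 4 of 46 tested in right ventricle, against 1.13% and 2.21% of all genes called lower, and higher levels for none. In lung these were Klf4 (−0.81 ± 0.15, edgeR adjusted p = 0.0018), Ier5 (−0.66 ± 0.12, adjusted p = 0.0021), Klf2 (−0.99 ± 0.21, adjusted p = 0.0078) and Gadd45g (−0.48 ± 0.13, adjusted p = 0.038). Klf2 and Klf4 are flow-responsive transcription factors of endothelium, and Gadd45g is a stress-response protein. In right ventricle they were the polo-like kinase Plk2 (−1.10 ± 0.23, adjusted p = 0.021), the mRNA-decay factor Zfp36l1 (−0.84 ± 0.19, adjusted p = 0.024), the matrix protein Ctgf (−0.90 ± 0.21, adjusted p = 0.026) and Klf4 (−1.17 ± 0.33, adjusted p = 0.049). The list's median log2 fold change was −0.20 in lung and −0.24 in right ventricle, and without litter 6RARA it was −0.22 in lung and −0.01 in right ventricle, with 0 genes called in either.

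Among 28 regulators of these genes, such as serum response factor, CREB and the MAP kinases, 0 of 23 tested passed in lung and Elk3, an ETS factor that works with serum response factor, was called lower in right ventricle (−0.84 ± 0.23, adjusted p = 0.047). The 2 lowest p values in lung belonged to Mapk14 (−0.18, adjusted p = 0.24) and Srf (−0.20, adjusted p = 0.46). Of 12 steroid-induced genes none passed in either tissue, with Mt1 at 0.49 (adjusted p = 0.10) and Per1 at 0.87 (adjusted p = 0.22) in lung, and Cdkn1a at −0.87 (adjusted p = 0.062) and Per1 at 0.83 (adjusted p = 0.071) in right ventricle. Of 10 heat shock genes tested none passed in either tissue. Hsp90aa1 gave −0.84 (adjusted p = 0.31) and Bag3 −0.84 (adjusted p = 0.45) in lung, and Hsp90aa1 gave −1.06 (adjusted p = 0.11) and Dnajb1 −1.22 (adjusted p = 0.17) in right ventricle. The heat shock list had a median of −0.63 in lung and −0.69 in right ventricle with all animals, and of 0.13 in lung and 0.35 in right ventricle without animal 4RARA39.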

How the data were processed

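mRNA libraries of lung and right ventricle were sequenced together on one flow cell, per the labels' protocols. The submitters' processing notes name FastQC, MultiQC 0.11.5, STAR 2.5, Subread with featureCounts 1.5.1 and edgeR, and the labels name the rn6 build. The deposited tables hold raw counts per gene, and, per the file headers, the authors' log2 fold change, p-value and false discovery rate for altitude against room air. The 54 columns of log2 RPKM per library deposited beside them were not used. Strand use in counting is not given in the sources used here. Entries without a symbol (22 in lung, 21 in right ventricle) took 0.201% and 0.156% of counts and were left out.

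Counts were scaled by TMM and tested with edgeR 4.0.16 (robust quasi-likelihood test, R 4.3.3), with treatment and sex as terms, on genes passing a minimum count of 10 and a total of 15. All 10 genes passed this filter in both tissues. A call is a Benjamini-Hochberg adjusted p under 0.05 over all genes tested. Agreement of the tissues used log2 CPM (prior count 2) centred on the litter and an F test over 10986 genes, with 100000 permutation draws for the 10 genes. The tests were checked on simulated data. For edgeR and DESeq2 the simulated counts held only planted changes along the tested contrast. They held no other litter, batch or single-animal effects, so the check does not cover such effects. The animal, which the labels give for both tissues, paired the samples: over 10986 genes, lung and ventricle deviations of one animal correlated at a mean of 0.281, against −0.0107 for other animals of the same treatment, and 22 of 25 pairs exceeded 0.1. The alternatives were RLE scaling, DESeq2 1.42.0, no count filter, limma 3.58.1 voom with litter as a random effect, sums per litter, batch, RIN and sex terms, and leaving out litters or animals.

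The members, lists and tests were chosen with earlier results of these data known. All 10 members are named, and of each other list the genes called for altitude, or the 2 lowest p-values where none was. The 5 non-member genes most correlated with the mean of the members are named per tissue.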

Additional observations from a re-analysis of the deposited data

Results flagged for a closer look

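Within each litter and tissue, the gap of the highest or lowest animal to its nearest neighbour was compared with the litter's range by Dixon's criterion, on log2 CPM, for 10 genes in 8 groups. Of 80 groups, 14 were exceptional, where chance gives about 1 in 20, and 7 of the 14 belonged to animal 4RARA39. The 10 genes were measured in the same animals, so the 80 groups are not independent and the rate by chance is only a rough guide. No cause of these values was tested.

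In the lung of 4RARA39, Jun (1239 CPM), Junb (182 CPM) and Ier2 (160 CPM) stood far above its littermates, whose highest values were 307, 99.1 and 104 CPM. In its right ventricle, Fos (26.8 CPM), Jun (556 CPM), Atf3 (56.2 CPM) and Cyr61 (146 CPM) did so, with the nearest littermates at 3.19, 151, 7.40 and 36.2 CPM.

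Animal 4HH33 had 37.998 CPM of Fosb in its right ventricle, with its nearest littermate at 2.31 CPM. In lung, Fosb of 4HH39 was far below its litter at 0.141 CPM, with the nearest at 2.46 CPM. In the lung of 6RARA68, Egr1 was at 1.82 CPM and Nr4a1 at 12.3 CPM, with the nearest littermates at 10.5 and 27.3 CPM.

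In litter 3HH, Cyr61 was high at 97.3 CPM in the lung of 3HH20 (nearest 49.3 CPM) and at 41.8 CPM in the right ventricle of 3HH27 (nearest 25.5 CPM). Nr4a1 was low at 8.76 CPM in the right ventricle of 3HH20 (nearest 14.9 CPM).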

How the results depend on the processing

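Leaving out animals 4RARA39 or 4HH33, or 6RARA with 4RARA39, was chosen after seeing the data, and the other alternatives were planned. Of the values for single genes, 713 kept direction and side of the threshold, 26 passed it newly, 68 lost it and 43 changed sign; the causes were not tested. In lung, 242 genes were called for altitude, and 485 with DESeq2, 1230 without litter 4RARA, 156 with batch, 10 with voom, 0 with sums per litter, 523 without the lungs of 4HH39, 6RARA66 and 6RARA68, and 0, 2 and 0 within batches 1, 2 and 3. Of the 10 early genes, 1 was called with RLE scaling, without a filter or without those 3 lungs, and 0 without 3HH, 4HH, 6RARA or 4RARA39, with RIN, within batches, with voom or with sums. In right ventricle, 343 became 797 with DESeq2, 529 without 4HH37, 0 without 3HH, 52 without 4HH, 6508 without 4RARA, 18 without 6RARA, 23 with batch, 51 with RIN, 0 and 4 within batches 1 and 2, 0 with voom or sums, 191 without 4HH33 and 8 without 6RARA and 4RARA39. The early genes called there were 3 with DESeq2 or without 4HH37, 7 without 4RARA, and 0 without a filter, 3HH, 4HH or 6RARA, with batch or RIN, within batches, with voom or sums, or without 6RARA and 4RARA39. Batch 3 could not be fitted in right ventricle and was not run.

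The difference of altitude effects gave 220 genes with DESeq2, 179 without 4HH37, 25 without 6RARA, 3474 without 4RARA (1 early gene), 23 without 3HH and 63 without 4HH; with the animal as a replicate block it gave 114 genes and 0 early genes. Lung over right ventricle gave 9427 genes and 7 early genes with the replicate block. It gave 7921 genes and 3 early genes without 4RARA, and 8028 genes and 1 early gene without 3HH. The litters gave 1092 (DESeq2), 267 (without 4HH37) and 296 (batch) genes in altitude lungs, and 612 (DESeq2), 80 (without 4HH37), 77 (batch), 48 (RIN) and 624 (without 4HH33) in altitude ventricles. Room-air lungs gave 3412 genes and 1 early gene without the lungs of 4HH39, 6RARA66 and 6RARA68, and 2109 genes and 2 early genes without 4RARA39. Room-air ventricles gave 5525 genes and 1 early gene with RIN, and 7003 genes and 9 early genes without 4RARA39. They gave 1 to 5 early genes when each 6RARA animal was left out (6352 to 6561 genes). DESeq2 called 9 genes for sex in right ventricle. Tissue agreement was called for 158 genes with RIN, 1019 centred on treatment, 153 without 4RARA39 and 467 without the 2 farthest animals of each gene. It was called for 1 early gene without 4RARA39, without 6RARA and 4RARA39, or without the 2 farthest of each gene.

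Signs changed as follows. Lung altitude: Fosb 0.27 (batch 2), Egr1 0.0012 and Nr4a1 0.11 (batch 3), Nr4a1 0.026 (without 4RARA). Right ventricle altitude without 6RARA and 4RARA39: Fos 0.85, Fosb 0.83, Jun 0.23, Junb 0.047, Atf3 0.57, Cyr61 0.081, Nr4a1 0.29. Right ventricle altitude otherwise: Fosb 0.18 (without 3HH), 0.72 (without 6RARA) and 0.25 (RIN), Atf3 0.19 (voom), Nr4a1 0.020 (without 3HH), 0.28 (without 6RARA), 0.043 (RIN) and 0.064 (voom). Lung over right ventricle: Fosb 0.45 (replicate block), 0.39 (without 6RARA) and 0.44 (without 4HH), Egr1 0.088 (replicate block) and 0.086 (without 6RARA). Room-air litters in lung without 4RARA39: Jun 0.16, Junb 0.034, Egr1 0.41, Atf3 0.046; without the 3 lungs, Egr1 0.14 and Cyr61 −0.064; with RIN, Cyr61 −0.12. Litters in ventricle: Fosb −0.36 (without 4HH33), and, over the room-air fits that each leave out one 6RARA animal, Egr1 −0.015 to 1.49 and Atf3 −0.040 to 0.68, both negative without 6RARA72 alone. Agreement of Ier2: −0.12 (batch) and −0.63 (within 4RARA); of Nr4a1: −0.053 (without 4HH37), −0.061 (without 6RARA), −0.030 (sex), −0.11 (treatment), −0.011 (without 4RARA39), −0.083 (without 6RARA and 4RARA39) and −0.15 (within 4HH).

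Low counts limit Fosb: the shallowest library, the lung of 6RARA66 with 1026832 counts, held 5 Fosb reads, and the lung of 4HH39 held 2 of its 19650583 counts.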

Other observations

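In the lung of animal 4HH33, an altitude male whose right ventricle held 38.8 CPM of Fos, the AP-1 subunit gene Fosl1 was at 22.1 CPM, against 0.0707 to 0.627 CPM in its 5 littermates. The next highest lung, that of room-air animal 4RARA38, held 9.35 CPM. In the same lung the metallothionein genes Mt2A (33.4 CPM) and Mt1 (20.0 CPM) were the highest of all 29 lungs, against 3.64 to 7.65 CPM and 7.49 to 12.9 CPM in littermates. Of 49 other early genes in the lung table, 24 were above every littermate in 4HH33, and 32 were in the lung of 4RARA39. In right ventricle it was 8 of 48 in 4HH33 and 22 of 48 in 4RARA39. The share of all genes above every littermate was not computed. These genes were singled out after their values were seen.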
